A study of Mus musculus with 4 samples.

Results

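Expression of 10 immediate early genes was followed in testis RNA of Fam170a knockout and wild-type mice. They are Fos, Fosb, Jun, Junb, Egr1, Atf3, Ier2, Ier3, Dusp1 and Zfp36, and they were selected by name, as the rows of the deposited table that carry these symbols. The names were chosen with earlier results of these data known, which limits what shares of the 10 genes can show. All 10 were found among the 22274 genes of the table, each on 1 row, and all 10 passed the filter on low counts. The series holds 2 knockout (KO) libraries and 2 wild-type (WT) libraries of poly(A) RNA from adult testis. The genotype label of KO replicate 1 names Fam170a and that of KO replicate 2 names Fam171a, and each of the KO libraries held 1 Fam170a count, against 2240 and 3510 counts in WT replicates 1 and 2. The strain, the age in weeks, the knockout allele and whether each library is a different animal are not stated in any source used here. P-values therefore reflect the spread among these 4 samples alone, and that spread may be technical. The comparison asked whether the immediate early transcripts differ in a testis without Fam170a, whose role in spermiogenesis, the remodelling of spermatids into sperm, is the subject of the series.

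Immediate early genes are transcribed within minutes of a stimulus, before any new protein is made. Growth factors, hormones and stress reach them through kinases of the MAPK and cAMP pathways, which activate the serum response factor with its Elk partners at CArG boxes and the CREB and ATF factors at cAMP response elements. Their messengers are short-lived, partly because proteins such as Zfp36 bind AU-rich elements in their 3′ untranslated regions. The products include subunits of the AP-1 transcription factor (Fos, Fosb, Jun, Junb), other transcription regulators (Egr1, Atf3), Ier2 and Ier3, a phosphatase that switches MAP kinases off (Dusp1) and the RNA-binding protein Zfp36. In the testis, Leydig cells respond to luteinizing hormone with several of these genes, and the CREB relative Crem activates genes of haploid spermatids through cAMP response elements.

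The upstream sequences are shown because the 10 genes were compared as a group and the factors named above bind there. RefSeq windows in GRCm38.p6 were found for 8 of the 10 genes (not for Egr1 and Ier2). The 250 bases before the start that RefSeq gives for each gene were searched for 5 motifs. For Atf3, Dusp1 and Zfp36 the whole window lies inside the span that GENCODE gives the gene, printed below, so the starts in these sources differ. Of the 8 windows, 5 held the half-site of the cAMP response element, TGACG on either strand (Fos, Fosb, Junb, Atf3 and Dusp1), against 17.8% of all 32851 promoter windows of this length. An EGR site, GCGNGGGCG on either strand, lay in the windows of Fosb and Zfp36, against 4.7% of all windows. A CArG box lay in that of Zfp36 (1.5% of all windows). A TATA box, TATAAA on the coding strand, lay in that of Fos, starting 33 bases before the RefSeq start, against 7.6% of all windows. No window held the AP-1 site TGANTCA on either strand, which 6.7% of all windows hold. The half-sites overlap on both strands once, in Dusp1, where they form TGACGTCA. Matches are a description of letters in these windows and not evidence of binding. The 6 windows with a match are chr12:85473640-85473889 for Fos on the forward strand, and on the reverse strand chr7:19310046-19310295 for Fosb, chr8:84978749-84978998 for Junb, chr1:191183334-191183583 for Atf3, chr17:26508473-26508722 for Dusp1 and chr7:28379229-28379478 for Zfp36. Each is printed 5′ to 3′ with the matches in capitals.
Fos: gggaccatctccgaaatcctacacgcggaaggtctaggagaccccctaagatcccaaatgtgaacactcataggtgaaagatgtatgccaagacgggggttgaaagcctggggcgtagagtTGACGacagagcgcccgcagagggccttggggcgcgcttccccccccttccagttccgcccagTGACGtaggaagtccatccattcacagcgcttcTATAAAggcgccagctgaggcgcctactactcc
Fosb: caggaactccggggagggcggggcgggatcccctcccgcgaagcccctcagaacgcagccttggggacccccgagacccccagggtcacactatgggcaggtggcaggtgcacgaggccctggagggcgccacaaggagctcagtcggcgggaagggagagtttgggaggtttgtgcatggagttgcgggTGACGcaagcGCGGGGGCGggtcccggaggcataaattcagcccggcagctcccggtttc
Junb: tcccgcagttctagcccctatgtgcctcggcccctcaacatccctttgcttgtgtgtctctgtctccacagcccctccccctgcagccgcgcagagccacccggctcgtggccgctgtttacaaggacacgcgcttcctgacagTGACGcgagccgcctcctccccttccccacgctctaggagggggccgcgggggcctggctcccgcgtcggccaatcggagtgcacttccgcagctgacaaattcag
Atf3: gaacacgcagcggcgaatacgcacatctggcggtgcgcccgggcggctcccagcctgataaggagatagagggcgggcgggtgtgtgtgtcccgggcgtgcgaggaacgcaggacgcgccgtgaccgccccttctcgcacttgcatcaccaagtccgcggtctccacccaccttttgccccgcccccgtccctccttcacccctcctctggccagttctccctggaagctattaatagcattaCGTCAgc
Dusp1: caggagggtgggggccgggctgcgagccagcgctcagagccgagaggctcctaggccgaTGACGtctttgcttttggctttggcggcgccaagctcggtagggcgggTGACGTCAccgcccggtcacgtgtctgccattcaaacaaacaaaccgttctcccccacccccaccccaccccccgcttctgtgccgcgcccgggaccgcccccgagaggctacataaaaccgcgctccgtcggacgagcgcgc
Zfp36: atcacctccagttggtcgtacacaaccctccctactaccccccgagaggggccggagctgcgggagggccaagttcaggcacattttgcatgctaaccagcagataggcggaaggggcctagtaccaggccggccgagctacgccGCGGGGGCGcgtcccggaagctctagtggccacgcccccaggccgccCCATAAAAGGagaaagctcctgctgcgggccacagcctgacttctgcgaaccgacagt

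The longest 3′ untranslated region of each gene in GENCODE M21 (GRCm38) was searched for TATTTAT, the DNA form of an AU-rich element that Zfp36 binds. It occurred in 7 of the 10 genes. Ier3 had 4 matches, Dusp1 and Zfp36 itself 3 each, Fos 2, and Fosb, Jun and Atf3 1 each, while Junb, Egr1 and Ier2 had 0 in regions of 485, 1216 and 755 bases. In the last 400 bases of the region, 6 of the 10 genes had a match and 4 had 2 or more. Among 11615 tested genes with a window of this length, 12.7% had a match and 1.8% had 2 or more. The sites below are the stretch of 30 bases with the most matches in the 4 genes with 2 or more, TATTTAT in capitals. They lie at chr12:85477102-85477131 (forward strand) in Fos, chr17:35822480-35822509 (forward) in Ier3, chr17:26506159-26506188 (reverse) in Dusp1 and chr7:28376962-28376991 (reverse) in Zfp36.
Fos: gtgttttcaattTATTTATtaagatggatt
Ier3: gtgtctaattaaTATTTATgTATTTATgta
Dusp1: ggagctggtcctTATTTATttaacaccccc
Zfp36: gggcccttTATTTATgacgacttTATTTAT

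Values are given for each library as CPM, the count of a gene relative to the library's total count, scaled with TMM factors that correct for library composition. The 4 libraries held 26029374 to 41684437 counts. The testis label fitted the germ cell markers. Their summed levels were 1295 to 1565 CPM for 8 spermatocyte markers and 3376 to 9478 CPM for 8 elongating spermatid markers in the 4 libraries. Of 7 epididymal genes, Lcn5 and Lcn8 had 0 counts in every library. The 7 summed to 76.5 to 128.5 CPM, most of it Cst8 (75.8 to 128.2 CPM). Each log2 fold change (KO over WT) comes from edgeR's quasi-likelihood test and carries its standard error (SE), and means carry the SD with n = 2. Intervals of a single library's CPM are exact 95% Poisson intervals, which cover counting error only. In testis RNA, fewer cells of a type and less RNA per cell cannot be told apart.

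None of the 10 genes passed the test between genotypes. The gap between genotypes was larger than the gap within either genotype in 1 of them, Atf3. At an adjusted p under 0.05, edgeR called 0 of them, against 0.908% of the 15636 genes tested (0.454% higher in KO and 0.454% lower), and DESeq2 and limma-voom also called 0. At an unadjusted p under 0.05 edgeR had 1 member, Atf3, higher in KO and 0 lower, where 11.8% of all tested genes were higher and 12.8% lower. All 10 fold changes were positive, with a median of 0.55, while that of all tested genes was 0.01 and 50.8% of them were positive. That of Dusp1 was just above 0 and changed sign with other scalings. All 10 were highest in KO replicate 1, against 19.6% of all tested genes, and 8 were lowest in WT replicate 2, against 32.9%.

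**Figure D1:**
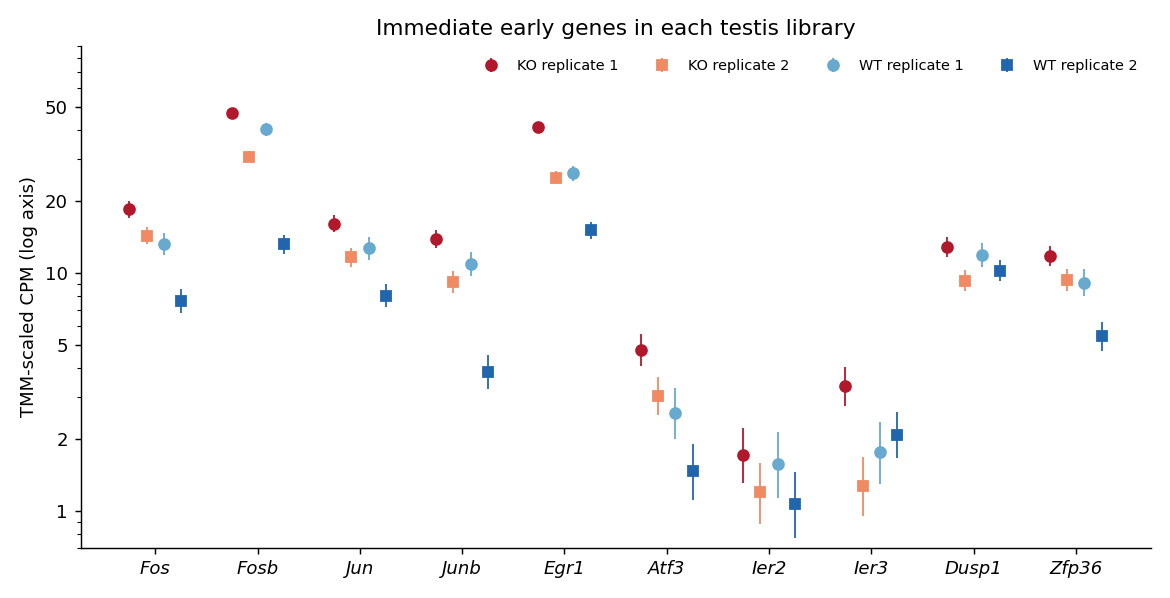
TMM-scaled CPM of the 10 immediate early genes (horizontal axis) in each library on a log axis, KO in red and orange and WT in blue; bars are exact 95% Poisson intervals of the counts. KO replicate 1 is the highest library for every gene, and WT replicate 2 the lowest for all but Ier3 and Dusp1.

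Fos encodes the founding Fos subunit of AP-1, which binds DNA only as a dimer with a Jun protein. It lies at chr12:85473890-85477273 on the forward strand. Its level was 18.5 and 14.3 CPM in KO replicates 1 and 2, against 13.3 and 7.64 CPM in WT replicates 1 and 2. Both KO libraries lay above both WT libraries, but the nearest pair, KO replicate 2 (95% interval 13.2 to 15.6) and WT replicate 1 (11.9 to 14.8), overlapped in counting error. Means were 16.4 ± 2.94 CPM in KO and 10.5 ± 4.0 CPM in WT. The log2 fold change was 0.66 ± 0.28 (SE, with an adjusted p of 0.217 in edgeR), and its 95% interval ran from -0.03 to 1.35.

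Fosb, a Fos relative that likewise pairs with Jun proteins, lies at chr7:19302696-19310051 on the reverse strand and was the member with the most counts in total. It was at 46.8 and 30.9 CPM in KO replicates 1 and 2, against 40.1 and 13.2 CPM in WT replicates 1 and 2. The genotypes overlapped, and WT replicate 2 stood apart below the other 3 libraries. Between the WT libraries alone the level differed 3.04-fold, while KO over WT was 1.47-fold (95% interval 0.624 to 3.44). The log2 fold change was 0.55 ± 0.50 (SE, with an adjusted p of 0.534 in edgeR).

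Jun, the partner that Fos proteins need and that can also pair with itself, lies at chr4:95049034-95052222 on the reverse strand. It was at 16.1 and 11.7 CPM in KO replicates 1 and 2, against 12.7 and 8.03 CPM in WT replicates 1 and 2. The genotypes overlapped, and the log2 fold change was 0.43 ± 0.27 (SE, with an adjusted p of 0.363 in edgeR). Junb, a Jun relative that often restrains Jun activity, lies at chr8:84974484-84978718 on the reverse strand. It was at 13.9 and 9.19 CPM in KO replicates 1 and 2, against 10.9 and 3.85 CPM in WT replicates 1 and 2. The WT libraries differed 2.84-fold, again with WT replicate 2 below the other 3, and the log2 fold change was 0.67 ± 0.48 (SE, with an adjusted p of 0.427 in edgeR). Fosb and Junb had nearly the same profile over the 4 libraries, at a distance of 0.133 on the centred log2 scale, the second smallest of all 45 pairs of members after Fos and Zfp36 (0.129).

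Junb overlaps Prdx2, a peroxiredoxin gene on the opposite strand, and Jun, Atf3 and Zfp36 overlap noncoding transcripts on the opposite strand. No source used here says whether strand was used in counting, which leaves these levels uncertain to that extent. Prdx2 itself was at 3.21 and 3.60 CPM in KO replicates 1 and 2 and at 4.88 and 4.45 CPM in WT replicates 1 and 2. Whether reads of Prdx2 entered the counts of Junb was not tested. Dusp1 overlaps Ergic1 on the opposite strand and 3 further transcripts annotated as pseudogenes or as a sense intronic RNA. Ergic1 was at 25.8 and 30.5 CPM in KO replicates 1 and 2 and at 29.9 and 23.5 CPM in WT replicates 1 and 2.

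Egr1, a zinc finger factor known for driving the luteinizing hormone gene of the pituitary, lies at chr18:34859823-34864984 on the forward strand. It was at 41.1 and 25.2 CPM in KO replicates 1 and 2, against 26.2 and 15.1 CPM in WT replicates 1 and 2. KO replicate 2 and WT replicate 1 were close to each other between the high KO replicate 1 and the low WT replicate 2. The log2 fold change was 0.69 ± 0.33 (SE, with an adjusted p of 0.257 in edgeR). Atf3, an ATF family factor that is induced by many kinds of stress, lies at chr1:191170296-191218039 on the reverse strand. It was at 4.76 and 3.04 CPM in KO replicates 1 and 2, against 2.57 and 1.46 CPM in WT replicates 1 and 2. It had the largest fold change of the 10, 1.95-fold with a 95% interval of 1.05 to 3.64, at a log2 value of 0.97 ± 0.36 (SE, with an adjusted p of 0.181 in edgeR). The KO libraries lay above the WT libraries, yet the 95% counting intervals of KO replicate 2 (2.52 to 3.64) and WT replicate 1 (1.99 to 3.27) overlapped.

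Ier2 and Ier3, small immediate early response proteins of which Ier3 is linked to cell survival, had the lowest total counts of the 10 genes. Ier2, at chr8:84661331-84662852 on the reverse strand, had 59 and 47 counts in KO replicates 1 and 2, against 41 and 41 counts in WT replicates 1 and 2. These were 1.72 and 1.20 CPM in KO and 1.57 and 1.07 CPM in WT, with a log2 fold change of 0.15 ± 0.34 (SE, with an adjusted p of 0.822 in edgeR). At this depth the 95% interval of the fold ran from 0.617 to 2.005, which spans lower and higher levels in KO. Ier3, at chr17:35821684-35822923 on the forward strand, departed from the shared order. It was at 3.36 and 1.28 CPM in KO replicates 1 and 2, against 1.77 and 2.09 CPM in WT replicates 1 and 2. The KO libraries, 2.63-fold apart, enclosed both WT libraries, and the log2 fold change was 0.25 ± 0.47 (SE, with an adjusted p of 0.784 in edgeR).

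Dusp1, the phosphatase that inactivates MAP kinases and so ends the signal that induces the others, lies at chr17:26505590-26562128 on the reverse strand. It was at 12.9 and 9.29 CPM in KO replicates 1 and 2, against 11.9 and 10.2 CPM in WT replicates 1 and 2. The KO libraries again enclosed the WT libraries, and means were 11.1 ± 2.55 CPM in KO and 11.1 ± 1.19 CPM in WT. The fold of 1.003 had a 95% interval of 0.718 to 1.40, and the edgeR adjusted p was 0.992. Zfp36, which binds AU-rich messengers and speeds their decay, lies at chr7:28376784-28380253 on the reverse strand. It was at 11.8 and 9.37 CPM in KO replicates 1 and 2, against 9.10 and 5.42 CPM in WT replicates 1 and 2. The log2 fold change was 0.55 ± 0.27 (SE, with an adjusted p of 0.267 in edgeR), and KO replicate 2 (8.43 to 10.4) and WT replicate 1 (7.98 to 10.3) overlapped in counting error.

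Levels can be set against each other only per length of exon. Over all 4 libraries Egr1 averaged 6.0 ± 2.38 CPM per kilobase (SD, n = 4), Fos 5.72 ± 1.90 and Fosb 5.25 ± 2.34. Junb at 4.11 ± 1.84, Jun at 3.81 ± 1.05 and Dusp1 at 3.35 ± 0.490 CPM per kilobase came next, then Zfp36 at 2.57 ± 0.758 and Ier3 at 1.88 ± 0.785. Atf3 at 1.37 ± 0.635 and Ier2 at 0.915 ± 0.201 CPM per kilobase were lowest. Of the neighbours in this order, only Dusp1 and Zfp36 differed by more than the larger of their SDs, and they kept their order in all 4 libraries, as did Fosb and Junb.

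For most of the 10 genes, libraries of a genotype differed by more than the genotypes did. The WT libraries were further apart than the genotypes, on the log2 scale, for 8 of the 10 genes (all but Atf3 and Ier3), against 45.1% of all tested genes. The KO libraries were further apart than the genotypes for 6 of the 10 (Fosb, Jun, Egr1, Ier2, Ier3 and Dusp1), against 36.6% of all tested genes. KO replicate 1 exceeded KO replicate 2 in all 10 genes, where 48.4% of tested genes did, and WT replicate 1 exceeded WT replicate 2 in 9, where 49.3% did. The median log2 ratio of the 10 genes was 0.56 between the KO libraries and 0.77 between the WT libraries, against -0.01 for all tested genes in both pairs. KO replicate 1 was highest and WT replicate 2 lowest in 8 of the 10 genes, against 9.32% of all tested genes. From high to low, the order was KO replicate 1, WT replicate 1, KO replicate 2, WT replicate 2 in Fosb, Jun, Junb, Egr1 and Ier2 (2.71% of all tested genes). It was KO replicate 1, KO replicate 2, WT replicate 1, WT replicate 2 in Fos, Atf3 and Zfp36 (6.63% of all tested genes). Dusp1 ran KO replicate 1, WT replicate 1, WT replicate 2, KO replicate 2 (1.54% of all tested genes), and Ier3 ran KO replicate 1, WT replicate 2, WT replicate 1, KO replicate 2 (1.60%). This pattern was noticed in the values and then counted. In 3 genes (Fos, Atf3, Zfp36) both KO libraries lay above both WT libraries, and in 0 below, against 29.4% and 27.9% of all tested genes.

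**Figure D2:**
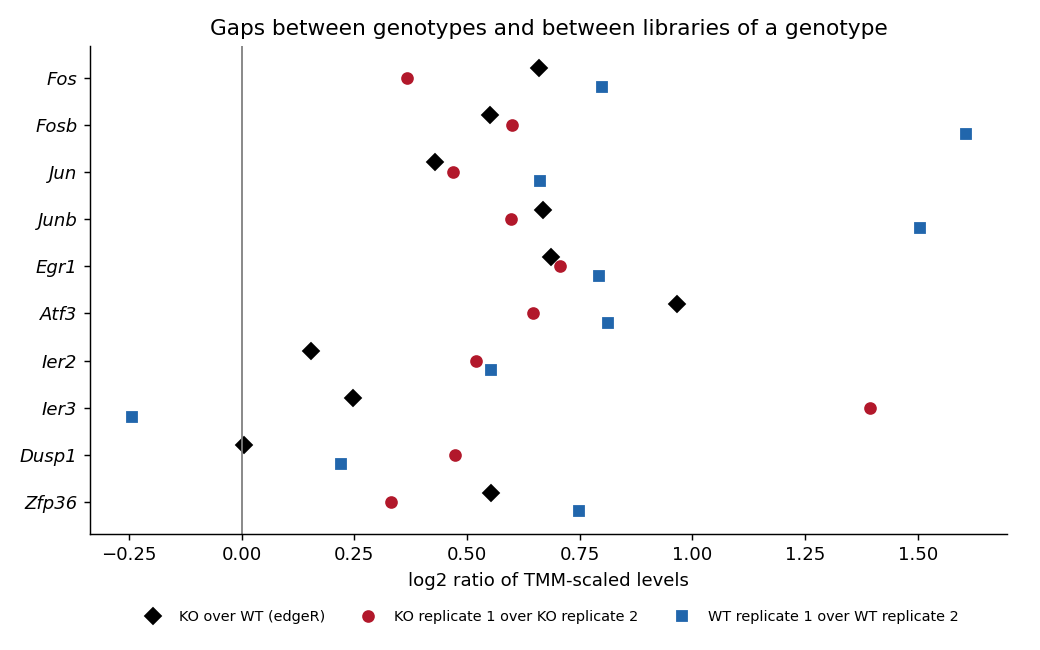
Log2 ratios of each gene (vertical axis) between genotypes (black diamonds) and between the libraries of a genotype (red circles for KO, blue squares for WT). The WT gap reaches 1.61 for Fosb and 1.5 for Junb and exceeds the genotype gap in 8 of 10 genes.

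The fold changes depended on which WT library was kept. Without WT replicate 1, which leaves WT replicate 2 as the only WT library and takes the spread from the KO pair, the median log2 fold change of the 10 genes was 0.98. Then edgeR called 7 of them higher in KO (Fos, Fosb, Jun, Junb, Egr1, Atf3 and Zfp36), where 8.53% of the 16105 genes tested were called higher. Fosb stood at 1.5 and Junb at 1.53 in that fit. Without WT replicate 2 the median was 0.16 and edgeR called 0 of the 10 (2.45% of all tested genes higher), and Fosb stood at -0.06. Without KO replicate 1 the median was 0.26, and without KO replicate 2 it was 0.80. In both fits edgeR called 0 of the 10 (0.0809% of all tested genes higher).

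**Figure D3:**
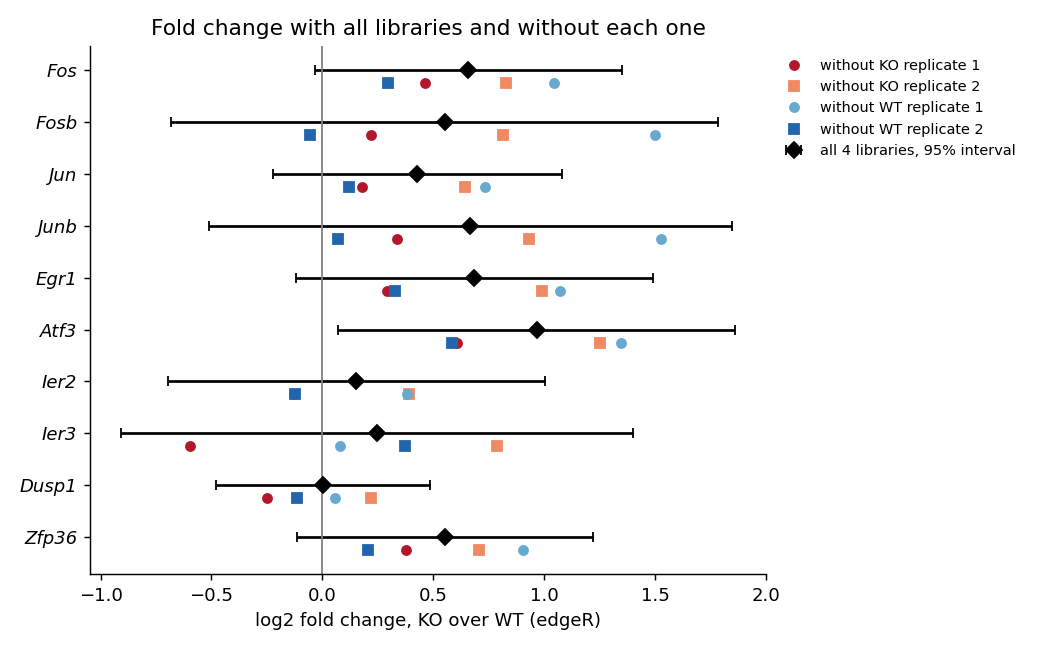
Log2 fold change of KO over WT (horizontal axis) for each gene, with all 4 libraries (black diamonds, 95% interval) and with 1 library left out (coloured symbols). Fits without WT replicate 1 lie at 1.05 for Fos and 1.5 for Fosb, and those without WT replicate 2 at 0.30 and -0.06.

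In their summed level, markers of macrophages and other leukocytes had the same order of libraries as the 10 genes. The summed level of the immediate early genes was 170.9 and 115.4 CPM in KO replicates 1 and 2, against 130.2 and 68.1 CPM in WT replicates 1 and 2. For 11 macrophage and leukocyte markers the sums were 51.8 and 28.8 CPM in KO and 38.9 and 9.16 CPM in WT, in the same replicate order. Among 7 lists of related pathway genes, the sums of the rapid-response effectors and of the feedback inhibitors had this order too, at 740.1 and 700.5 CPM in KO and 705.1 and 612.9 CPM in WT for the effectors, and at 189.1 and 177.9 CPM in KO and 182.2 and 169.1 CPM in WT for the inhibitors. All 11 leukocyte markers were lowest in WT replicate 2 (32.9% of all tested genes) and 7 were highest in KO replicate 1 (19.6%). The most abundant of them, the class II chain gene Cd74, was at 10.8 and 5.49 CPM in KO replicates 1 and 2 and at 11.7 and 1.15 CPM in WT replicates 1 and 2. None of the 11 was at 0 in all libraries, edgeR called 0 (2 higher at an unadjusted p under 0.05) and the median log2 fold change was 0.94.

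The summed level of peritubular and stromal markers was also highest in KO replicate 1 and lowest in WT replicate 2. Singly, 3 of the 11 genes had that pattern, against 9.32% of all tested genes. Their 11 genes summed to 75.9 and 49.8 CPM in KO replicates 1 and 2, against 47.8 and 31.7 CPM in WT replicates 1 and 2. Dcn, a matrix proteoglycan gene and the most abundant of them, was at 41.1 and 19.0 CPM in KO and at 17.4 and 3.22 CPM in WT. None was at 0 in all libraries, edgeR called 0 (at an unadjusted p under 0.05, 3 in each direction) and the median log2 fold change was 0.20. The part of these and the leukocyte markers' cells in the level of the immediate early genes was not tested.

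Other cell types took other orders. Leydig cell markers summed to 6.51 and 5.46 CPM in KO replicates 1 and 2, against 15.4 and 9.08 CPM in WT replicates 1 and 2. Elongating spermatid markers summed to 4354 and 7008 CPM in KO and to 9478 and 3376 CPM in WT, so WT replicate 1 was highest. Sertoli markers summed to 257.2 and 256.7 CPM in KO and to 305.4 and 251.4 CPM in WT, most of it Tjp1, a junction gene not limited to Sertoli cells. Gene by gene, their median log2 fold change was -0.73, with 7 of the 10 tested negative and 3 positive. Endothelial markers summed to 21.5 and 23.6 CPM in KO and to 24.6 and 26.03 CPM in WT. Round spermatid markers summed to 2009 and 2034 CPM in KO and to 1762 and 1632 CPM in WT, with all 8 fold changes positive. Spermatogonial markers summed to 81.3 and 77.1 CPM in KO and to 92.9 and 118.2 CPM in WT. Spermatocyte markers summed to 1295 and 1365 CPM in KO and to 1565 and 1543 CPM in WT. In the spermatogonial and spermatocyte lists edgeR called 1 of 10 and 1 of 8 tested genes lower, against 0.454% of all tested genes. The 10 heat shock and dissociation stress genes differed by 1.11-fold between the highest and lowest library sums, against 2.51-fold for the immediate early genes. Such a sum is weighted to its most abundant genes, and log2 fold changes of single stress genes ran from -0.35 to 0.49 (7 negative, 3 positive).

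**Figure D4:**
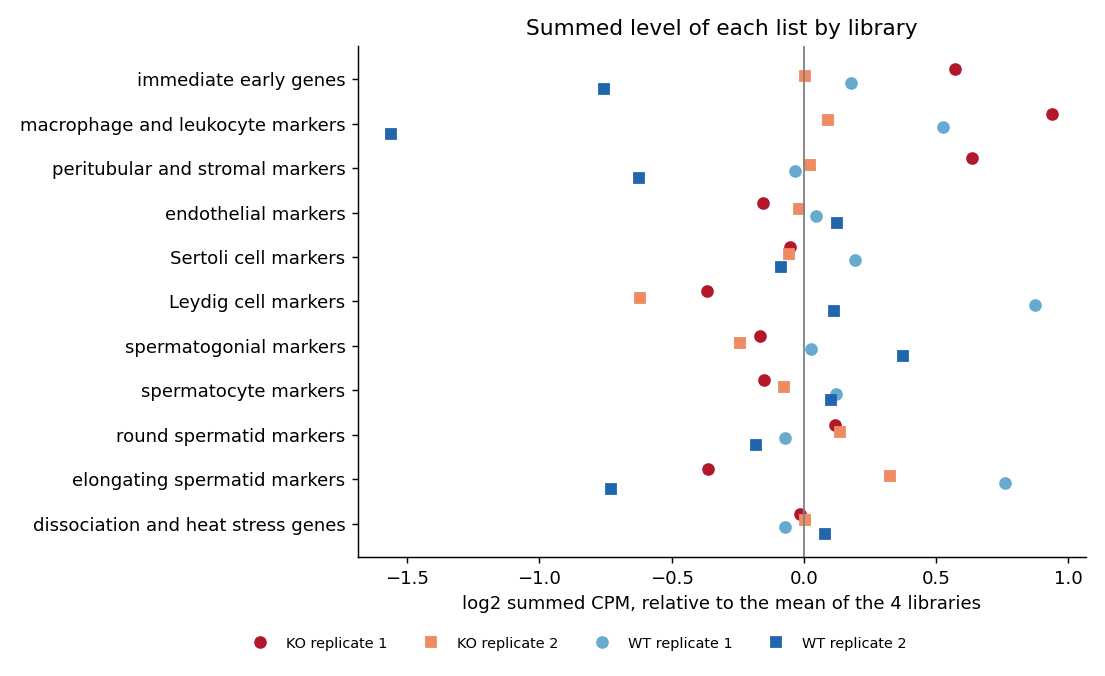
Summed CPM of each list in each library (log2, relative to the mean of the 4 libraries), with KO in red and orange and WT in blue. The immediate early genes and the macrophage and leukocyte markers run in the order KO replicate 1, WT replicate 1, KO replicate 2, WT replicate 2, while Leydig and elongating spermatid markers do not.

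The rest of the pathway was described with 7 lists of related genes. Of their 121 genes 115 were tested, and edgeR called 0 in either direction. At an unadjusted p under 0.05, 8 (6.96%) were higher and 10 (8.70%) lower, below the 11.8% and 12.8% of all tested genes. DESeq2 called 2 lower, Egr4 among them, where it called 628 lower and 383 higher of all 15636 genes tested. With limma-voom 0 were called. KO replicate 1 was highest and WT replicate 2 lowest in 24 of the 115, against 9.32% of all tested genes.

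Among 11 further AP-1 subunits tested, the median log2 fold change was 0.03. Fosl1, a Fos relative, was at 6.13 and 6.51 CPM in KO replicates 1 and 2 and at 5.65 and 4.66 CPM in WT replicates 1 and 2 (adjusted p 0.336 in edgeR). On the log2 scale Maf stood at 0.62, Mafg at -0.37 and Mafk at -0.35, with adjusted p of 0.298, 0.312 and 0.345 in edgeR. The smallest adjusted p of the list was that of Maf, and 7 of the 11 fold changes were positive.

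The 15 other immediate early transcription regulators had a median of 0.12, with 11 fold changes positive and 4 negative. Of these, 7 were highest in KO replicate 1 and lowest in WT replicate 2, against 9.32% of all tested genes. Egr4, an Egr relative expressed in germ cells, ran the other way from Egr1, at 1.84 and 2.09 CPM in KO replicates 1 and 2 and 3.57 and 5.10 CPM in WT replicates 1 and 2. Its log2 fold change was -1.15 ± 0.25 (SE, with an adjusted p of 0.0985 in edgeR), and DESeq2 called it at an adjusted p of 0.0223. Egr3 was at 38.2 and 27.9 CPM in KO and at 25.8 and 21.8 CPM in WT (adjusted p 0.184 in edgeR). Klf4, a zinc finger factor also made in postmeiotic germ cells, was at 344.9 and 326.5 CPM in KO and at 293.4 and 267.4 CPM in WT (adjusted p 0.153 in edgeR). Ier5l stood at -0.68 on the log2 scale (adjusted p 0.175 in edgeR).

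The 21 tested effectors of the rapid response had a median log2 fold change of 0.00. Arc, known as an activity-regulated gene of neurons, was at 482.2 and 472.5 CPM in KO replicates 1 and 2 and at 419.9 and 390.4 CPM in WT replicates 1 and 2 (adjusted p 0.155 in edgeR). Ccn1, a matrix-associated growth regulator, was at 0.67, Nfkbia, the inhibitor of NF-kappa-B, at -0.70 and the kinase gene Sgk1 at -0.65 on the log2 scale. Their edgeR adjusted p were 0.298, 0.253 and 0.247. The 17 feedback inhibitors had a median of -0.17. Of the Zfp36 relatives, Zfp36l1 stood at 0.34 and Zfp36l2 at -0.47 on the log2 scale (in edgeR adjusted p 0.218 and 0.153). The phosphatase genes Dusp16 and Dusp2 had log2 fold changes of 0.26 and 0.90 (in edgeR adjusted p 0.182 and 0.279).

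Upstream of the immediate early genes, 26 kinases and GTPases had a median log2 fold change of -0.09 and 15 transcription factors and coactivators one of -0.02. On the log2 scale Braf, a kinase of the ERK cascade, stood at 0.28 and the JNK kinase Mapk10 also at 0.28, while Mapkapk2, which acts on Zfp36, stood at -0.52, with edgeR adjusted p of 0.121, 0.138 and 0.125. Crem was at 326.4 and 346.2 CPM in KO and at 267.3 and 269.0 CPM in WT, or 0.33 as a log2 fold change (adjusted p 0.105 in edgeR). Among CREB coactivators Crtc3 stood at -0.98 and Crtc1 at -0.50 and the serum response cofactor Mrtfa at 0.25 (in edgeR adjusted p 0.104, 0.161 and 0.159). Of the 10 stress genes, with a median of -0.14, Hspa8, Bag3, Hspe1 and Hspb1 had log2 fold changes of -0.35, -0.19, -0.27 and -0.34. The smallest edgeR adjusted p among them was 0.2497, that of Hspa8.

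**Figure D5:**
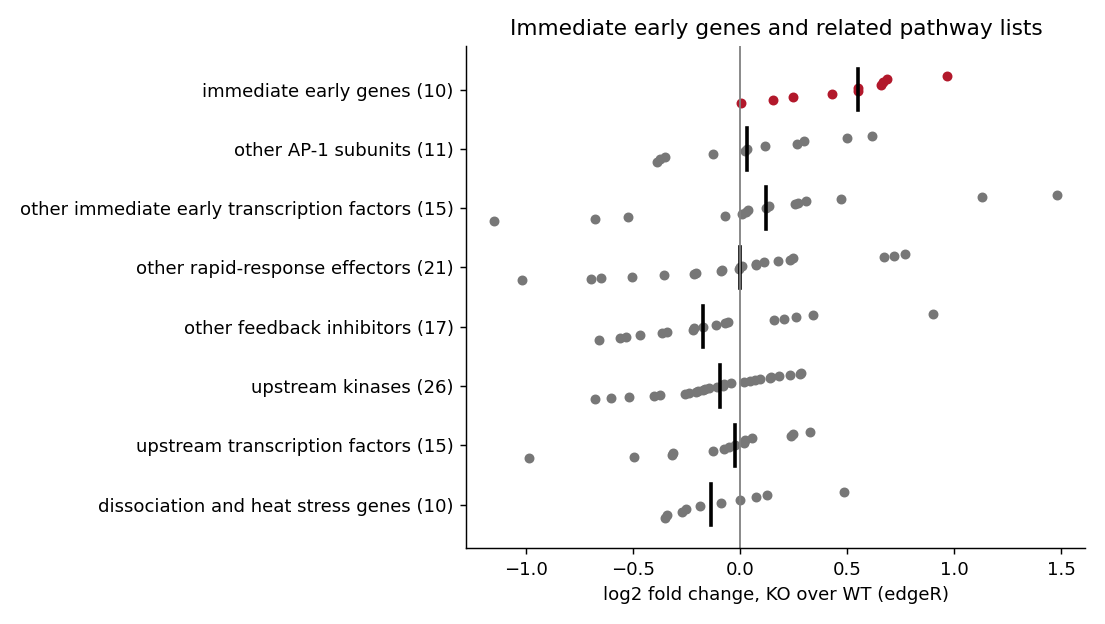
Log2 fold change of KO over WT for each tested gene (points) in the immediate early genes (red) and 7 related lists (grey), with the median as a black bar and the number tested in brackets. The median is 0.55 for the 10 immediate early genes and between -0.17 and 0.12 in the other lists.

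The members also differed in how closely they kept to their common profile, the mean of their centred log2 levels over the 4 libraries. Each member is itself part of this mean, so its distance cannot be set against those of other genes. Jun lay at a distance of 0.0990, Zfp36 at 0.18, Egr1 at 0.231, Fos at 0.238 and Atf3 at 0.335, while Ier3 lay farthest at 0.828. Of 13151 genes outside the 10 with a mean of at least 1 CPM, the 6 that lay nearest were Grm6, Egfr, Adamts7, Col26a1, Kcnd1 and Acoxl, at distances of 0.106 to 0.160. Egfr, the receptor of epidermal growth factor, was at 5.13 and 3.42 CPM in KO replicates 1 and 2 and at 3.34 and 2.07 CPM in WT replicates 1 and 2. The distance is a description over 4 libraries.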

How the data were processed

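Poly(A) RNA of 4 testis libraries was analysed from the deposited table of read counts, whole numbers for 22274 Ensembl genes that the authors had not normalized. Per the submitters' processing notes, the tools were HISAT2 2.1.0, RSEM, StringTie 1.3.1, Bowtie2 2.2.8 and fastp 0.18.0, with no role stated. No source used here states the build, the annotation, the strandedness or how multiply matching reads were counted, so levels of overlapping genes are uncertain. Each column was assigned from the genotype and replicate number in its name.

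Counts were filtered with filterByExpr (minimum count 10, minimum total 15), which left 15636 genes, scaled by TMM and tested with edgeR 4.0.16 in R 4.3.3 by a two-sided quasi-likelihood test with genotype as the only term. P-values were adjusted over all tested genes by the Benjamini-Hochberg method, threshold 0.05. The procedure was tested on simulated data, but the outcome is not given here. The SE is the log2 fold change divided by the square root of F. DESeq2 1.42.0 and limma-voom (limma 3.58.1) were alternatives. Replicates were not duplicates, with a chi-square per degree of freedom of 9.99 between KO and 42.5 between WT libraries.

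The members and lists were chosen with earlier results of these data known. Named outside the members were up to 4 genes per pathway list with the smallest p, the most abundant marker per list and the 6 genes nearest in profile (log2 of CPM plus 0.5). Positions, exon lengths and untranslated regions came from GENCODE M21 (GRCm38), promoters from RefSeq. 1 gene that the rule for named genes selects is not reported here.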

Additional observations from a re-analysis of the deposited data

How the results depend on the processing

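The count of immediate early genes called stayed at 0 under each change of scaling, filter, tool, block and threshold, and ran from 0 to 7 when 1 library was left out, the 7 without WT replicate 1. The number of genes called over the whole table was 142, and 82 with total counts, 451 without a filter, 1011 with DESeq2, 18 at a threshold of 0.01 and 21 to 3408 with 1 library left out. In the 7 related lists the count was 0, and 1 without a filter, 2 with DESeq2 and 0 to 20 with 1 library left out. Whether the replicate numbers pair the samples is not settled by the values, as deviations of same-numbered libraries correlated at -0.191 over genes. With a replicate block 9 genes were called and 0 of the 10. Then 7 of the 10 had an unadjusted edgeR p under 0.05, against 1 without the block. The share of all tested genes at that p is not given here, so the 7 cannot be set against a background. A replicate term also takes up a gap that both genotypes share, as most of the 10 genes had. Crossed numbers, tried after seeing the data, gave 902 genes, 0 of the 10 and 1 in the lists. Dusp1, at 0.0043, changed sign with DESeq2 size factors (-0.0089), DESeq2 (-0.0089), limma-voom (-0.0088), the replicate block (-0.012) and crossed numbers (-0.0056), and to -0.10 with total counts, which moved the median of all genes to -0.10. With 1 library left out, log2 fold changes ran from -0.057 to 1.5 for Fosb, -0.13 to 0.39 for Ier2, -0.60 to 0.79 for Ier3 and -0.25 to 0.22 for Dusp1. A fit without 1 library assumes that the lone library varies like the other genotype's pair. The causes were not tested. Ier2 had the fewest counts, 41 to 59 a library.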
